A study of Saccharomyces cerevisiae with 23 samples.

Results

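A1 and A2 are aneuploid populations of the budding yeast Saccharomyces cerevisiae, that is, cultures whose cells carry abnormal chromosome sets, and both came from a-selection, as the labels name the route by which they were obtained. They were compared library by library: 3 libraries of A1 against 3 of A2, which is 6 of the 23 libraries of the study, with all 6596 genes of the count table, of which 6111 had enough counts to test. The labels give strain BY4741 and the genotype aneuploid for both populations, do not give their karyotypes, and state no treatment. Cells grew overnight in rich YPD medium and then for 4 h in fresh YPD at 23 °C in deep-well plates. The study set aneuploid populations of mixed karyotype against euploid ones to look for expression changes that go with aneuploidy. From the same route, the aneuploid population A3 (3 libraries) and a euploid population (3 libraries) are used here only as reference levels. Whether the replicates of a group were grown as separate cultures is not stated, so the p-values reflect variation among the sequenced libraries, and this may be technical only. In bulk RNA of a mixed population, more cells that express a gene and more RNA per cell cannot be told apart.

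An aneuploid cell has gained or lost whole chromosomes, and the RNA of most genes follows their copy number. Populations of mixed aneuploids also differ in how fast they grow, and yeast couples growth to the transcription of ribosome assembly genes, nutrient transporters and storage genes. BY4741 is a laboratory strain of mating type a in which marker genes such as URA3, LEU2, HIS3 and MET17 are usually deleted, so that plasmids or replaced genes can be selected. URA3 encodes orotidine phosphate decarboxylase of uracil synthesis, and can be selected both for and against. HO encodes the endonuclease that switches mating type and is a common site for placing markers, since laboratory strains do not need it.

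The 6 libraries held 12719710 to 17559480 counts. Levels are given in CPM, counts scaled to a common library size after TMM scaling, and differences as log2 fold changes of A1 minus A2 with their standard error (SE) from edgeR's quasi-likelihood fit over all 8 groups. A gene is called when its Benjamini-Hochberg adjusted p over the 6111 tested genes is under 0.05. In both populations the markers of a-cells stood far above those of alpha cells. The 6 mating type a markers together stood at 1037 to 1069 CPM in A1 and 1132 to 1160 CPM in A2. The 4 mating type alpha markers together stood at 55.8 to 61.1 CPM in A1 and 54.1 to 55.9 CPM in A2. Of these, the pheromone gene MF(ALPHA)1 had a mean of 0.942 CPM in A1 and 0.588 CPM in A2. Among the 4 markers of growing cells, RPL3 and RPS3 of the ribosome were higher in A1 (0.23 ± 0.02 and 0.20 ± 0.02) while NSR1 and NOP1 of ribosome assembly were lower (-0.27 ± 0.04 and -0.32 ± 0.05). Their summed level was 3626 to 3770 CPM in A1 and 3169 to 3232 CPM in A2. Of the 4 markers of stationary or stressed cells, CTT1, SPG4 and HSP26 were higher in A1 (0.21 ± 0.02, 0.20 ± 0.05 and 0.14 ± 0.03) and HSP12 was not called. Their summed level was 12070 to 12562 CPM in A1 and 11381 to 11837 CPM in A2. The part of growth state in the results below was not tested.

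A1 and A2 differed in many genes, nearly all by little. Of the 6111 tested genes 2087 (34.2%) were called, 941 higher in A1 (15.4%) and 1146 lower (18.8%). The median absolute log2 fold change of the called genes was 0.18, and 1584 of them (75.9%) differed by less than 1.2-fold. Only 77 differed by 1.5-fold or more, and 19 (0.311%) by 2-fold or more, 12 higher and 7 lower. A test against a fold of 1.2 called 85 higher and 77 lower genes. The direction of small differences depended on the scaling: with library totals alone 564 genes were higher and 1842 lower. In 2841 genes (46.5%) the 3 libraries of A1 all lay above or all below those of A2.

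More genes differed between each of these populations and A3. Between A1 and A3 4262 genes were called (69.7%), 482 by 2-fold or more (7.89%), and between A2 and A3 3939 (64.5%), 358 by 2-fold or more (5.86%). Against the euploid population 4423 genes were called in A1 (72.4%), 587 by 2-fold or more (9.61%), and 4413 in A2 (72.2%), 606 by 2-fold or more (9.92%). These comparisons share libraries with each other. The plot of fold change against level shows that the genes far from 0 were few.

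**Figure D1:**
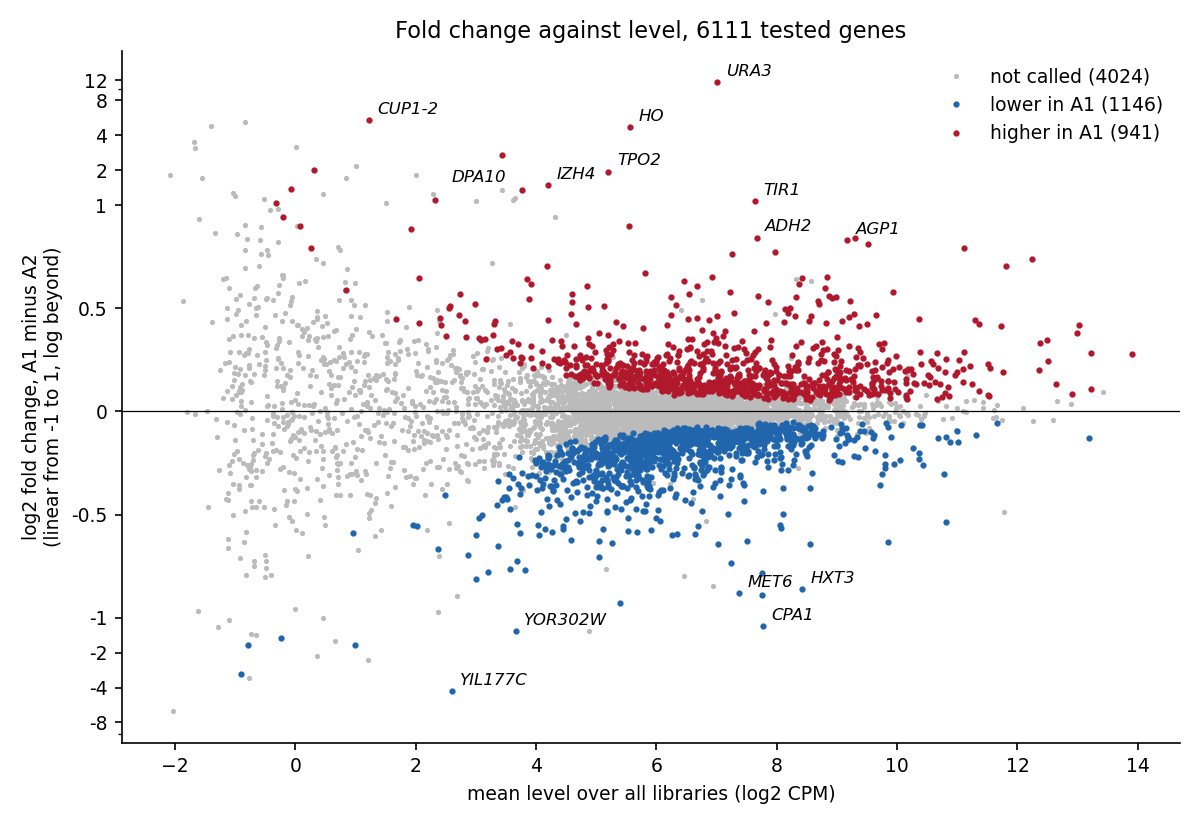
Log2 fold change of A1 minus A2 (vertical axis, linear between -1 and 1 and logarithmic beyond) against the mean level of each of the 6111 tested genes in log2 CPM (horizontal axis), with called genes in red (941 higher) and blue (1146 lower). URA3, CUP1-2 and HO stand highest among the called genes, and most called genes lie close to 0.

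URA3 gave the largest difference. It was present in A1 at 641, 658 and 671 CPM (11939, 9716 and 11218 counts) and all but missing from A2, with 1, 3 and 7 counts in the 3 libraries. The pooled ratio of A1 to A2 was 2970, with a 95% interval of 1660 to 5951 that covers counting error only (exact binomial). The adjusted p was 2.56e-23. A3 held 1, 1 and 6 counts and the euploid population 2, 1 and 0, so URA3 RNA in quantity was found in A1 alone among the 4 groups of the route. The gene (YEL021W) lies on chromosome V at 116167 to 116970 on the plus strand (R64). Its 2 tested neighbours on either side, YEL023C and GEA2, and TIM9 and PXP1, had log2 fold changes between -0.11 ± 0.06 and 0.07 ± 0.04 and were not called.

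HO (YDL227C, chromosome IV, 46271 to 48031, minus strand) came next among called genes with a mean level of at least 3 on the log2 CPM scale and no overlap between the groups. Its level was 132, 130 and 129 CPM in A1 against 5.25, 3.88 and 5.53 CPM in A2, a 26.8-fold difference (log2 fold change 4.74 ± 0.07, adjusted p = 1.98e-23). All 3 libraries of A1 lay far above all others: A3 stood at 7.27 ± 0.368 CPM (SD, n = 3) and the euploid population at 3.15 ± 0.352 CPM. HO is transcribed in haploid cells late in G1 under Swi5, Swi4 and Swi6, and Ash1 holds it off in daughter cells. Of its regulator genes SWI4, SWI6, SWI5, ASH1, SIN3 and RPD3, only SIN3, a subunit of a histone deacetylase complex, was called (-0.16 ± 0.04), and the others lay between -0.04 and 0.07. The neighbours of HO, PTP1, SSB1 and SHS1, were not called (0.04 ± 0.03, -0.02 ± 0.03 and -0.07 ± 0.05), and GCS1 was called at -0.11 ± 0.03 but not without A2 replicate 2 (adjusted p = 0.0804). None of these neighbours of URA3 and HO was called higher in A1. The files give counts per gene only, so how these transcripts begin and end was not tested.

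Apart from MET17, the other marker genes named here differed little. LEU2 and MET17, which BY4741 usually lacks, had counts in both populations, so in these genes the libraries do not match the usual genotype of the labelled strain. LEU2, of leucine synthesis, was at 269 ± 4.23 CPM in A1 and 244 ± 2.82 in A2 (SD, n = 3; log2 fold change 0.14 ± 0.04). HIS3 and LYS2 were not called (0.13 ± 0.07 and 0.02 ± 0.07). MET17, described with the sulfur genes, was lower in A1 (-0.60 ± 0.04). The arginine permease gene CAN1, often used for counterselection, was slightly higher (0.10 ± 0.03) and the lysine permease gene LYP1 was not called (-0.06 ± 0.03).

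**Figure D2:**
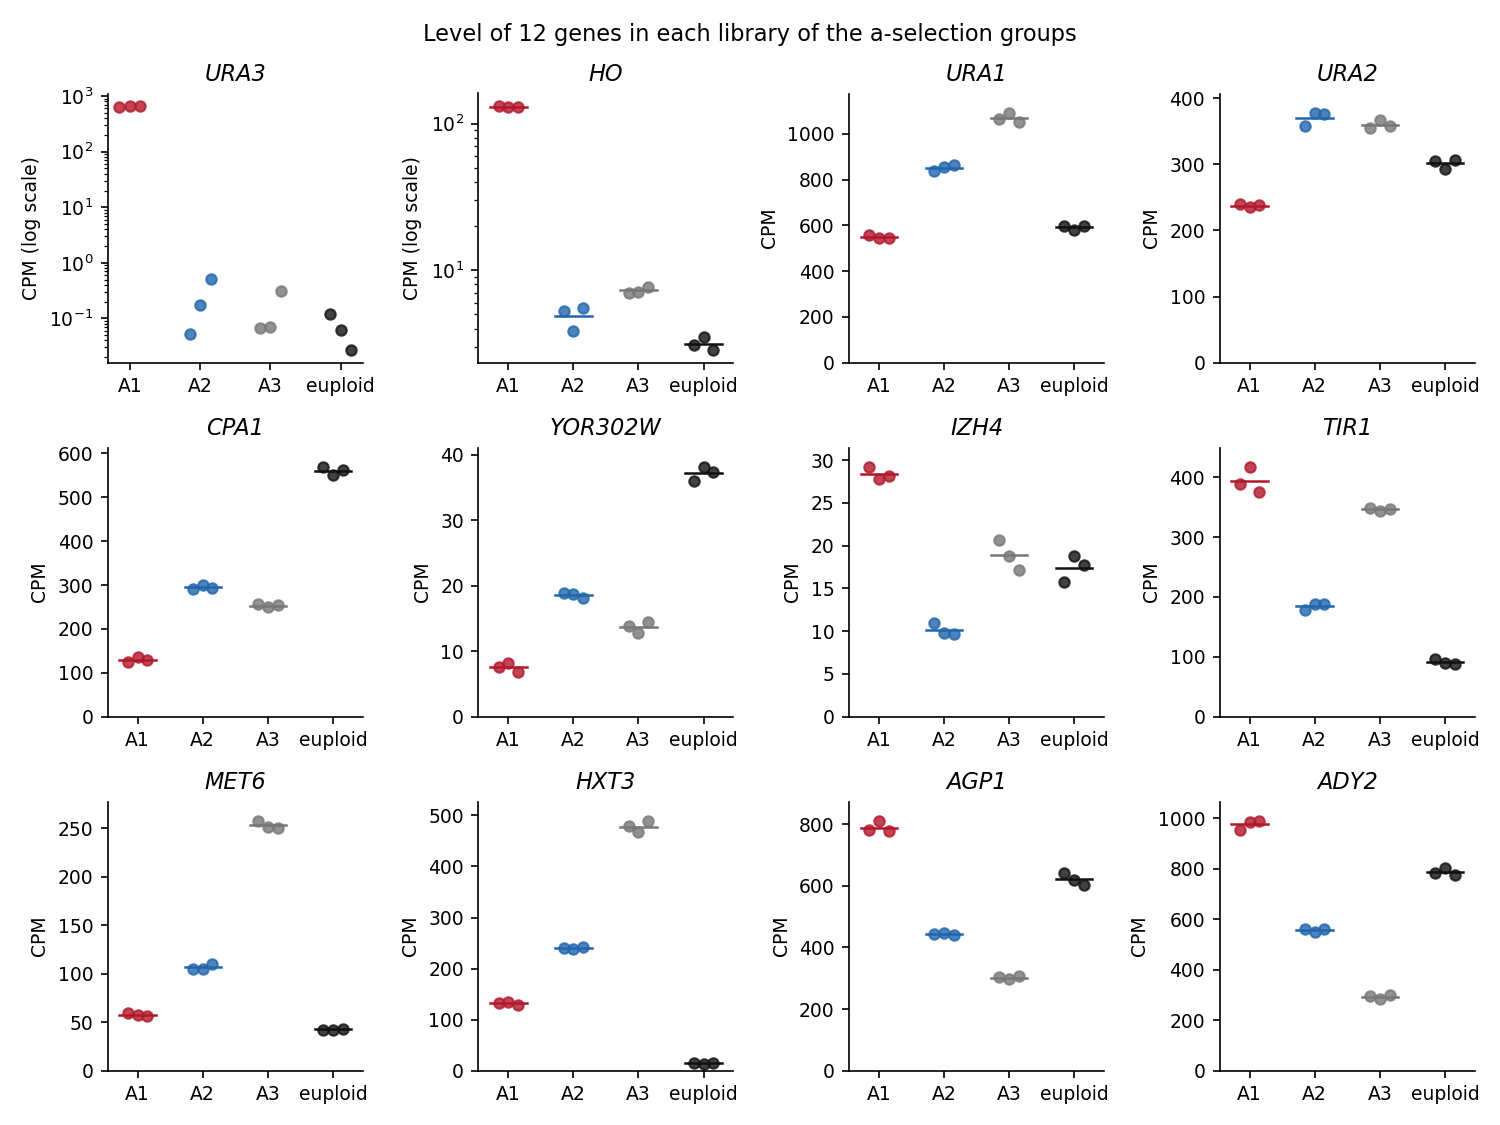
Level in CPM of 12 genes in every library of A1 (red), A2 (blue), A3 (grey) and the euploid a-selection population (black), with lines at the group means except for URA3. URA3 and HO are on log axes, where the euploid library with 0 counts of URA3 is drawn at the bottom edge, and the other axes start at 0. In each panel the 3 A1 libraries lie apart from the 3 A2 libraries, as in 46.5% of all tested genes.

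Several genes of uracil synthesis were lower in A1, the population with URA3 RNA. Yeast makes uridine phosphate from carbamoyl phosphate and aspartate through Ura2, Ura4, Ura1, Ura5 or Ura10, and Ura3. A strain without Ura3 cannot finish the route and takes up uracil or uridine. The activator Ppr1 responds to the intermediates ahead of the Ura3 step and raises transcription of URA1, URA3 and URA4. Ppr1 binds a pair of CGG triplets in opposite orientation, and the sequences that hold this spacing upstream of the listed genes are shown because these genes differ between A1 and A2. Each is written 5′ to 3′ on the strand of the gene from RefSeq's R64 genome, with CGG and CCG, 6 bases apart, in capitals and 25 bases on each side.
URA3: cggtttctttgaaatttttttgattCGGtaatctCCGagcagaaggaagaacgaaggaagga
URA1: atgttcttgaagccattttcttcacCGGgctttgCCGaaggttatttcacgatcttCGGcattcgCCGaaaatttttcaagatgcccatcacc
URA4: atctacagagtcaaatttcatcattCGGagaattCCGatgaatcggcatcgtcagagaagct
FUI1: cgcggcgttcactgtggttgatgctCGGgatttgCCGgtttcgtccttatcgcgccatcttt
The URA3 stretch is chrV:115990-116051 and its motif begins 152 bases before the start codon. The URA1 stretch is chrXI:24978-25070 with 2 matches that begin 212 and 181 bases before it, the URA4 stretch is chrXII:963630-963691 with the match at 130 bases, and the FUI1 stretch is chrII:140575-140636 (minus strand) with the match at 351 bases. In windows of 500 bases before the start codon, 5 of the 17 pyrimidine genes held this motif (FCY1 is the other), against 2.78% of 5749 genes. Of these 5 genes 3 were lower in A1 and 1, URA3 itself, higher, and of the 12 without the motif 4 were lower and 2 higher. Over all 5749 genes, 19.4% of those with the motif were lower and 20.6% higher. Of those without it 19.9% were lower and 15.9% higher. URA2, also lower in A1, is among the genes without it. A match is a description of the sequence and shows no binding.

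URA1, the dihydroorotate dehydrogenase gene (YKL216W, chromosome XI, 25215 to 26159), was at 557, 544 and 546 CPM in A1 and 837, 857 and 863 CPM in A2 (log2 fold change -0.63 ± 0.02, adjusted p = 3.35e-17). URA2, whose product makes carbamoyl phosphate and joins it to aspartate (YJL130C, chromosome X, 165723 to 172367), was at 240, 235 and 238 CPM against 358, 377 and 376 CPM (-0.64 ± 0.03, adjusted p = 1.27e-14). A3, where URA3 was also near 0, stood at 1069 CPM for URA1 and 360 CPM for URA2. The euploid population, with URA3 near 0 too, stood at 592 and 301 CPM.

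The uridine permease gene FUI1 (-0.40 ± 0.04) and the dihydroorotase gene URA4 (-0.33 ± 0.04) were lower in A1 as well. URA4 was at 85.3, 88.7 and 88.1 CPM against 109, 110 and 110 CPM. The CTP synthase gene URA7, the uracil phosphoribosyltransferase gene FUR1 and the UMP kinase gene URA6 were lower by less (-0.23 ± 0.06, -0.18 ± 0.06 and -0.12 ± 0.03). URA7 and FUR1 lost the call without 1 library (highest adjusted p = 0.0783 and 0.163). URA8, the other CTP synthase gene, was higher (0.20 ± 0.02), and so was URA10 (0.13 ± 0.05), whose call was lost without any of 4 libraries (highest adjusted p = 0.11). URA5, the main orotate phosphoribosyltransferase gene, was at 0.07 ± 0.03 and not called. PPR1 itself, at 4.74 and 5.36 CPM, was not called (-0.18 ± 0.14). In all, 7 of the 17 pyrimidine genes were lower (41.2%, beside 18.8%), 3 higher including URA3 (17.6%, beside 15.4%), and 7 not called, with a median log2 fold change of -0.16 beside -0.01 over all tested genes.

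**Figure D3:**
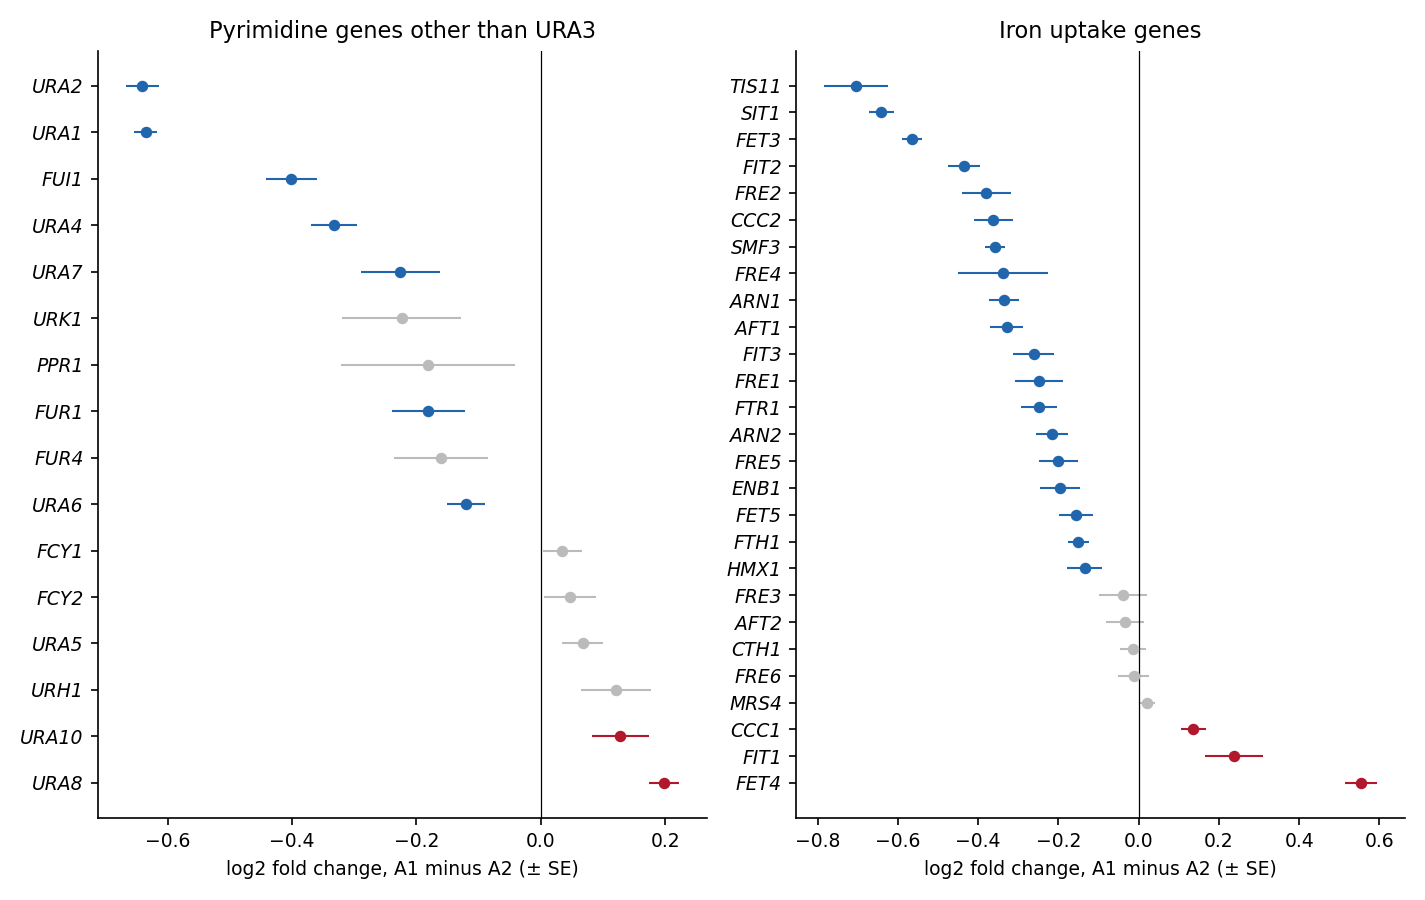
Log2 fold change of A1 minus A2 with its SE for the 16 pyrimidine genes other than URA3 (left) and the 27 iron uptake genes (right), ordered by value, with called genes in blue (lower in A1) or red (higher) and the others in grey. URA2 and URA1 are lowest on the left, and 19 of the 27 iron genes are in blue on the right.

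CPA1 and its upstream reading frame had the 2 largest falls by the naming rule. Cpa1 is the small subunit of the carbamoyl phosphate synthetase of arginine synthesis, whose translation is repressed by arginine through that short frame, YOR302W. CPA1 (YOR303W, chromosome XV, 882899 to 884134) was at 125, 135 and 130 CPM in A1 and 290, 300 and 294 CPM in A2, 2.26-fold lower (log2 fold change -1.18 ± 0.04, adjusted p = 7.89e-17). The upstream frame YOR302W (882765 to 882842), which is part of the same transcript, was at 7.62, 8.19 and 6.82 CPM against 18.8, 18.7 and 18.2 CPM (-1.30 ± 0.11, adjusted p = 8.28e-09). Being parts of the same transcript, the 2 entries are 1 observation. A3 stood near A2 for CPA1, at 253 ± 3.72 CPM, and the euploid population at 560 ± 8.92 CPM.

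The other arginine genes moved in both directions or were not called. ARG4, ARG3 and CAR1 were not called (-0.01 ± 0.03, -0.05 ± 0.10 and -0.02 ± 0.03), and neither were the regulator genes ARG80, ARG81, ARG82 and MCM1. ARG1 and ARG7 were higher (0.26 ± 0.07 and 0.33 ± 0.04), and so were the general permease gene GAP1 (0.46 ± 0.03) and PUT1 of proline breakdown (0.43 ± 0.02). In all 6 of 22 arginine genes were higher (27.3%, beside 15.4%), 4 lower (18.2%, beside 18.8%) and 12 not called. The neighbours of the pair, BUD7, RAX1 and ISW2, lay between -0.02 and 0.03 and were not called.

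Some genes known for low oxygen and cell surface change were higher in A1. TIR1, a cell wall mannoprotein gene of cold and anaerobic growth (chromosome V, 175248 to 176012), was at 389, 416 and 375 CPM in A1 against 177, 187 and 189 CPM in A2 (log2 fold change 1.09 ± 0.04, adjusted p = 1.07e-15). A3 lay between the 2 groups at 347 CPM. DAN1, another such mannoprotein gene, was at 7.15 ± 0.103 CPM against 3.27 ± 0.582 (1.11 ± 0.17). HEM13 of heme synthesis and ANB1, an oxygen-repressed form of translation factor eIF5A, were higher by 0.67 ± 0.04 and 0.57 ± 0.06. In a list of 31 tested PAU, TIR and DAN genes together with AAC3, ANB1, HEM13 and ROX1, 7 were higher (22.6%, beside 15.4%), 1 lower and 23 not called. ANB1 and HEM13 are among the 7, and the lower gene is ROX1 (-0.09 ± 0.03). The PAU genes of this list are near-identical copies, so their counts are uncertain.

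IZH4, a membrane protein gene linked to zinc and sterol balance (chromosome XV, 126982 to 127920), was at 29.2, 27.8 and 28.1 CPM in A1 and 10.9, 9.75 and 9.70 CPM in A2 (1.48 ± 0.09, adjusted p = 4.60e-12). A3 and the euploid population lay between, at 18.9 and 17.4 CPM. DPA10 was at 21.1, 24.2 and 22.8 CPM against 10.1, 9.10 and 7.18 CPM (1.35 ± 0.16), and stood at 2.13 and 1.45 CPM in A3 and the euploid population, so that both A1 and A2 lay above those 2 groups. STL1, the glycerol importer gene, was at 407 ± 7.82 CPM against 227 ± 3.36 (0.84 ± 0.02), and YER188W at 69.8 ± 0.485 against 37.4 ± 1.30 CPM (0.90 ± 0.03).

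Ribosome assembly genes were lower in A1 while ribosomal protein genes were higher. Of 79 ribosome biogenesis genes 64 were lower (81.0%, beside 18.8% of all tested genes) and none higher, with a median log2 fold change of -0.31. None was higher in edgeR at an unadjusted p under 0.05 either, or in DESeq2, and the highest of the 79 values was 0.06. DBP7, a helicase of large subunit assembly, was at 6.01, 5.48 and 5.86 CPM against 9.33, 9.69 and 10.7 CPM (-0.77 ± 0.12, adjusted p = 2.25e-05). RSA4 (-0.76 ± 0.11), MRT4 (-0.57 ± 0.05), RRP12 (-0.58 ± 0.07) and SYO1 (-0.58 ± 0.09), all assembly or transport factors, were lower as well. TRF5, the poly(A) polymerase gene of nuclear RNA surveillance, was at -0.78 ± 0.20. Of 21 genes of RNA polymerases I and III 11 were lower (52.4%, beside 18.8%) and none higher in edgeR, in DESeq2 or at an unadjusted p under 0.05 (median -0.23), with RPC19 at -0.55 ± 0.14, RPC82 at -0.53 ± 0.07 and RPA49 at -0.49 ± 0.11.

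Of 138 ribosomal protein genes 74 were higher (53.6%, beside 15.4%) and 5 lower, with a median of 0.10. RPS31, which encodes ubiquitin fused to a ribosomal protein, was at 2364, 2454 and 2540 CPM against 1859, 1816 and 1802 CPM (0.43 ± 0.03), and RPL30 at 0.33 ± 0.04. RPL4B was called at 0.50 ± 0.12, but 1 of its A1 libraries stood apart (394, 237 and 219 CPM against 201 to 202 CPM in A2). Many ribosomal protein genes have a near-identical copy, so that the split of reads between copies is uncertain. Relative to the euploid population the medians of ribosome biogenesis genes were 1.93 in A1, 2.29 in A2 and 3.55 in A3, and those of ribosomal protein genes 1.11, 1.02 and 1.82. A1 was the lowest of these 3 aneuploid populations in the first list and A2 in the second, as medians with no test.

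**Figure D4:**
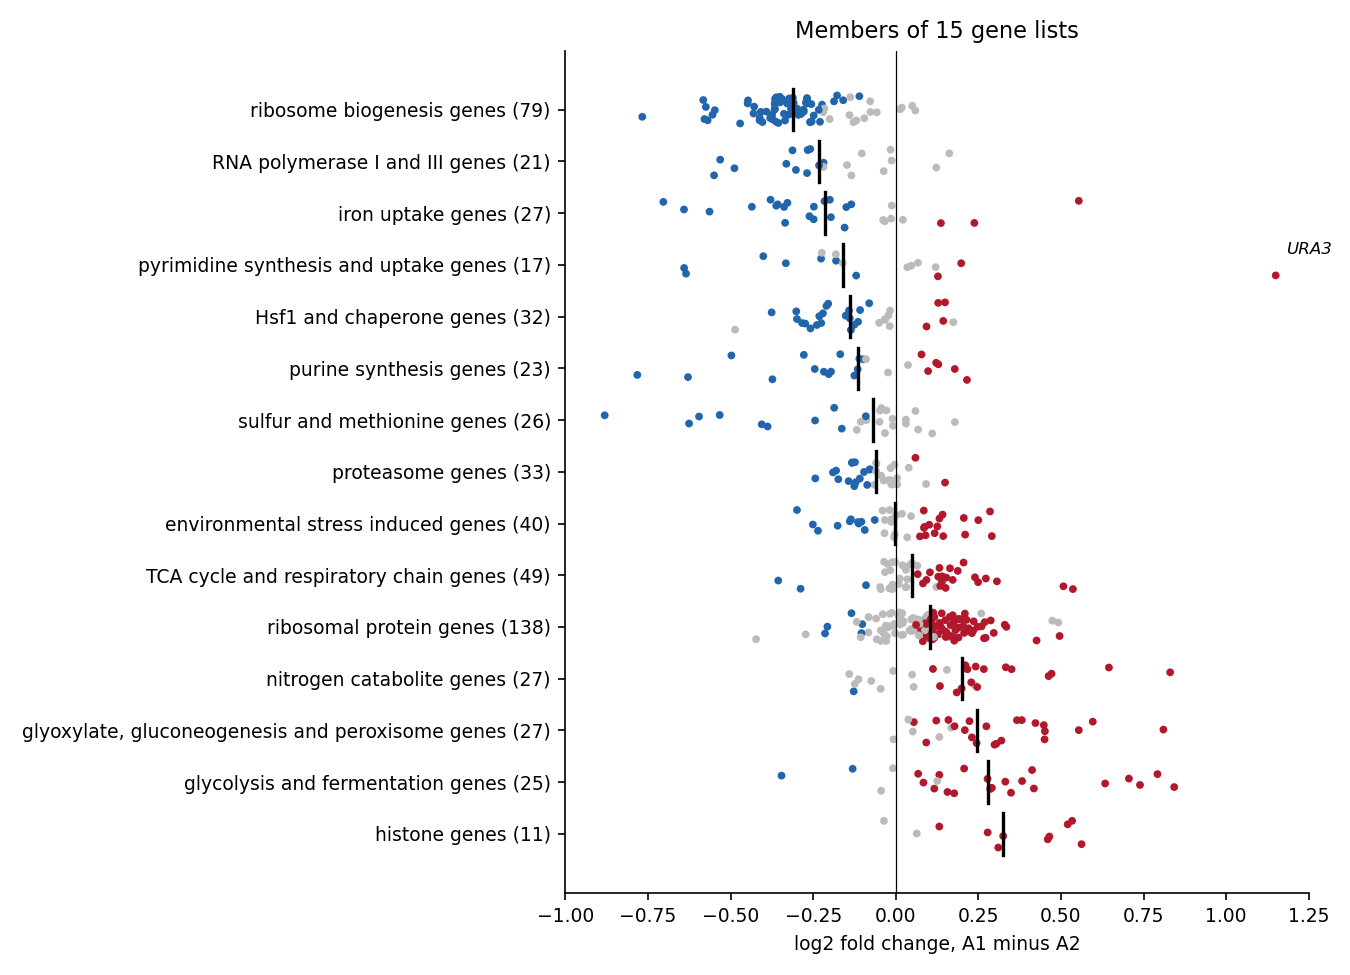
Log2 fold change of A1 minus A2 of each tested member of 15 gene lists (number of members in brackets), with called genes in red (higher in A1) or blue (lower), others in grey and the list's median as a black bar. URA3 is drawn at the right edge. The ribosome biogenesis list lies left of 0 with a median of -0.31, and the histone list right of it with a median of 0.33.

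Low-affinity glucose importer genes were lower in A1, and genes for other carbon sources were higher. HXT3 and HXT1 encode importers made when glucose is plentiful. HXT3 was at 132, 134 and 129 CPM against 240, 238 and 242 CPM (-0.86 ± 0.03, adjusted p = 8.67e-17), and HXT1 at 72.6, 78.5 and 77.2 CPM against 125, 124 and 131 CPM (-0.74 ± 0.05). A3 had more of both, at 478 and 239 CPM, and the euploid population less, at 14.2 and 36.4 CPM. HXT6, a high-affinity importer nearly identical to HXT7, was higher (0.65 ± 0.05). Among 18 tested hexose transporter genes 5 were higher (27.8%, beside 15.4%) and 4 lower (22.2%, beside 18.8%).

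Of 27 genes of the glyoxylate cycle, gluconeogenesis and peroxisomal fatty acid use, 22 were higher in A1 (81.5%, beside 15.4%) and none lower in edgeR, in DESeq2 or at an unadjusted p under 0.05, with a median of 0.24 and a lowest value of -0.01. The acetate permease gene ADY2 was at 956, 988 and 988 CPM against 561, 550 and 561 CPM (0.81 ± 0.02, adjusted p = 1.67e-17). PCK1 and FBP1, the enzymes particular to gluconeogenesis, were higher by 0.60 ± 0.02 and 0.55 ± 0.03, and the succinate-fumarate carrier gene SFC1 by 0.45 ± 0.03. ADH2, the alcohol dehydrogenase that oxidises ethanol, was at 272, 273 and 276 CPM against 152, 151 and 156 CPM (0.84 ± 0.03, adjusted p = 7.99e-16). The citrate synthase gene CIT2 was higher by 0.54 ± 0.02. ADH2 and CIT2 are not among the 27 genes, and neither is MDH2, the cytosolic malate dehydrogenase gene, which was lower (-0.36 ± 0.02). Genes of this kind are known to be repressed by glucose. In the 6 higher genes named here the 2 groups did not overlap, as in 46.5% of all tested genes. For ADY2 and ADH2 the naming rule required this.

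Glycolysis and fermentation genes were also higher, 20 of 25 (80.0%, beside 15.4%), with 2 lower and a median of 0.28. TDH1 and ENO1, the forms of glyceraldehyde phosphate dehydrogenase and enolase that rise as glucose runs out, were at 2243 ± 43.9 against 1375 ± 24.0 CPM (0.71 ± 0.02) and 4532 ± 179 against 2715 ± 27.3 CPM (0.74 ± 0.03). TDH2, which has a near-identical copy in TDH3, varied within A1 (1267, 2116 and 1563 CPM) and was at 931 to 992 CPM in A2 (0.79 ± 0.15). Of the 49 TCA cycle and respiration genes 22 were higher (44.9%, beside 15.4%) and 3 lower, but their median of 0.05 changed sign with library totals as the scaling. MDH2, the cytosolic malate dehydrogenase, was lower (-0.36 ± 0.02).

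Nitrogen genes that are held off by good nitrogen sources were higher in A1. Of 27 such genes 16 were higher (59.3%, beside 15.4%) and 1 lower, with a median of 0.20. AGP1, a broad amino acid permease gene, was at 781, 809 and 778 CPM against 445, 446 and 440 CPM (0.83 ± 0.03, adjusted p = 1.09e-14). GLN1, glutamine synthetase, was at 340, 345 and 335 CPM against 218, 213 and 221 CPM (0.65 ± 0.02), and the glutamate dehydrogenase gene GDH1 was higher by 0.47 ± 0.02. The acidic amino acid permease gene DIP5 was higher by 0.44 ± 0.02. The GATA factor motif GATAAG stood in the 500 bases before 23 of the 27 genes, against 22.8% of all. Of those 23 genes 12 were higher, while all 4 genes without it were higher. Over all genes searched, 16.9% of those with the motif were higher, and 15.8% of those without it. CHA1, which breaks down serine and threonine, went the other way at 111, 106 and 109 CPM against 204, 201 and 199 CPM (-0.89 ± 0.03, adjusted p = 3.02e-17), as did ARO9 and ARO10 of aromatic amino acid breakdown (-0.50 ± 0.02 and -0.48 ± 0.03).

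The sulfur and methionine genes that were called were lower in A1. Of 26 sulfur and methionine genes 10 were lower (38.5%, beside 18.8%) and none higher in edgeR, in DESeq2 or at an unadjusted p under 0.05, with a median of -0.07. MET6, methionine synthase, was at 59.0, 57.9 and 56.6 CPM against 104, 105 and 110 CPM (-0.88 ± 0.04, adjusted p = 9.33e-14). SAM1 and SAM2, the near-identical S-adenosylmethionine synthetase genes, were lower by -0.63 ± 0.03 and -0.53 ± 0.04, and MET17 was at 38.3 ± 0.709 against 57.9 ± 0.920 CPM (-0.60 ± 0.04). Sulfate assimilation genes such as MET3, MET16 and MET10 lay between -0.03 and 0.03 and were not called. SHM2, serine hydroxymethyltransferase, was at 104, 104 and 105 CPM against 175, 179 and 185 CPM (-0.78 ± 0.03, adjusted p = 1.12e-15), and ADE4 and ADE17 of purine synthesis were at -0.63 ± 0.07 and -0.50 ± 0.03. Of 23 purine genes 14 were lower (60.9%, beside 18.8%) and 6 higher (26.1%, beside 15.4%), with a median of -0.12. A3 had the highest level of MET6, SAM1 and SHM2 of the 4 groups, at 253, 289 and 406 CPM. GPX2, a glutathione peroxidase family gene, was at 20.1 ± 0.984 CPM in A1 and 38.4 ± 1.58 in A2 (-0.93 ± 0.06).

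Iron uptake genes were lower in A1. They are switched on by Aft1 when iron is short, and Aft1 recognises the core TGCACCC. The stretches with this core upstream of the 3 most reduced genes are shown on the gene's strand, with the core (or its reverse complement GGGTGCA) in capitals.
SIT1: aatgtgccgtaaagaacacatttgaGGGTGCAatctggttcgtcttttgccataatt
FET3: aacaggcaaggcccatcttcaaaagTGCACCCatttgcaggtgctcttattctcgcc
TIS11: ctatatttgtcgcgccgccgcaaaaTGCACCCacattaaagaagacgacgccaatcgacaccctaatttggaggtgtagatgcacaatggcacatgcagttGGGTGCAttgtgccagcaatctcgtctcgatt
They lie at chrV:27444-27500, chrXIII:388546-388602 and chrXII:416800-416932 (minus strand), with matches that begin 188 bases before the start codon of SIT1, 251 before that of FET3, and 249 and 173 before that of TIS11. Of the 27 iron genes 20 held the core in 500 bases, against 2.38% of 5749 genes.

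TIS11, which degrades mRNAs of iron-using proteins, was at 22.4, 23.0 and 19.9 CPM in A1 against 34.1, 34.3 and 38.1 CPM in A2 (-0.70 ± 0.08, adjusted p = 4.29e-07). SIT1, a siderophore importer, was at 103, 106 and 101 CPM against 160, 160 and 162 CPM (-0.64 ± 0.03), and FET3, the multicopper oxidase of high-affinity uptake, at 144, 141 and 140 CPM against 208, 207 and 213 CPM (-0.56 ± 0.03). In each the 3 A1 libraries lay below the 3 of A2, and 46.5% of all tested genes were separated in either direction. In all 19 of 27 iron genes were lower (70.4%, beside 18.8%) and 3 higher, with a median of -0.22. Of the 20 genes with the core 16 were lower, and of the 7 without it 3. Over all 5749 genes 31.4% of those with the core were lower, and 19.6% of those without it. FET4, the low-affinity importer, was higher (0.55 ± 0.04), and it is known to respond to oxygen and zinc as well as iron.

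Histone genes were higher in A1. Of 11 genes 9 were higher (81.8%, beside 15.4%) and none lower in edgeR, in DESeq2 or at an unadjusted p under 0.05, with a median of 0.33. They were led by the H4 genes HHF2 (532, 546 and 605 CPM against 367, 364 and 409 CPM, 0.56 ± 0.05) and HHF1 (0.53 ± 0.05) and the H2A genes HTA1 (0.52 ± 0.03) and HTA2 (0.46 ± 0.04). The pairs are near-identical in sequence, and the 8 core genes were all higher. The linker histone gene HHO1 and the centromere histone gene CSE4 were not called (-0.04 and 0.06). Of 26 cyclin and cell cycle genes 3 were higher (11.5%, beside 15.4%), 3 lower (11.5%, beside 18.8%) and 20 not called. CLN1 and CLB3 were higher (0.19 ± 0.04 and 0.17 ± 0.03), and CDC6 of replication licensing was at -0.65 ± 0.07.

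Chaperone and proteasome genes were lower by small amounts. Of 32 Hsf1 and chaperone genes 20 were lower (62.5%, beside 18.8% of all tested genes) and 4 higher (12.5%, beside 15.4%), with a median of -0.14, with SSA2 at -0.30 ± 0.03, SSA4 at -0.30 ± 0.03 and YDJ1 at -0.28 ± 0.03. Of 33 proteasome genes 15 were lower (45.5%, beside 18.8%) and 2 higher (median -0.06), with RPN1 at -0.24 ± 0.02. In the 40 genes induced in the environmental stress response 16 were higher (40.0%, beside 15.4%) and 11 lower (27.5%, beside 18.8%), with a median of 0.00. Mating genes of a-cells differed little: STE2, the pheromone receptor, BAR1, the protease that degrades alpha-factor, and STE6, the exporter, were lower at -0.13 ± 0.02, -0.17 ± 0.02 and -0.11 ± 0.03, and the other 4 a-specific genes were not called. None of the 7 tested alpha-specific genes was called in edgeR or DESeq2, and 1 was higher at an unadjusted p under 0.05 (edgeR).

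The medians of chromosomes VIII and XI were the lowest of the nuclear chromosomes in A1 minus A2, by less than 0.1 on the log2 scale, and 3 against 3 libraries cannot pass 0.05 for a chromosome. Relative to the euploid mean, the median over the 292 genes of chromosome VIII was 0.38, 0.42 and 0.39 in the A1 libraries and 0.47, 0.46 and 0.43 in those of A2. Over the 335 genes of chromosome XI it was 0.17, 0.18 and 0.18 against 0.26, 0.26 and 0.24. The groups did not overlap on either, nor on chromosomes I, II, III, V, VI, VII, XII, XIII, XIV and XVI, so this is not particular to them. The difference of A1 minus A2 had a median of -0.08 on chromosomes VIII and XI. An exact two-sided permutation test gave p = 0.1 for each, the smallest that 3 against 3 libraries allow, and 0.133 after Benjamini-Hochberg adjustment over 16 chromosomes. Of the genes of chromosome VIII 98 were lower (33.6%, beside 18.8%) and 14 higher, and of those of chromosome XI 121 were lower (36.1%) and 32 higher. All 13 windows of 20 genes along chromosome VIII and all 15 along chromosome XI had a median below 0, with ranges of -0.12 to -0.05 and -0.13 to 0.00.

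Chromosome V went the other way, with a median of 0.05 and all 14 windows above 0, and 72 of its 304 genes were higher (23.7%, beside 15.4%) and 37 lower (12.2%, beside 18.8%). With library totals as the scaling its median was 0.00. The medians of chromosomes III, IV, VI, VII, X, XII and XIII, all between 0.00 and 0.03, turned negative with that scaling. No nuclear chromosome differed from the median of all genes by 0.1 or more. The labels do not give copy numbers to set beside these medians.

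**Figure D5:**
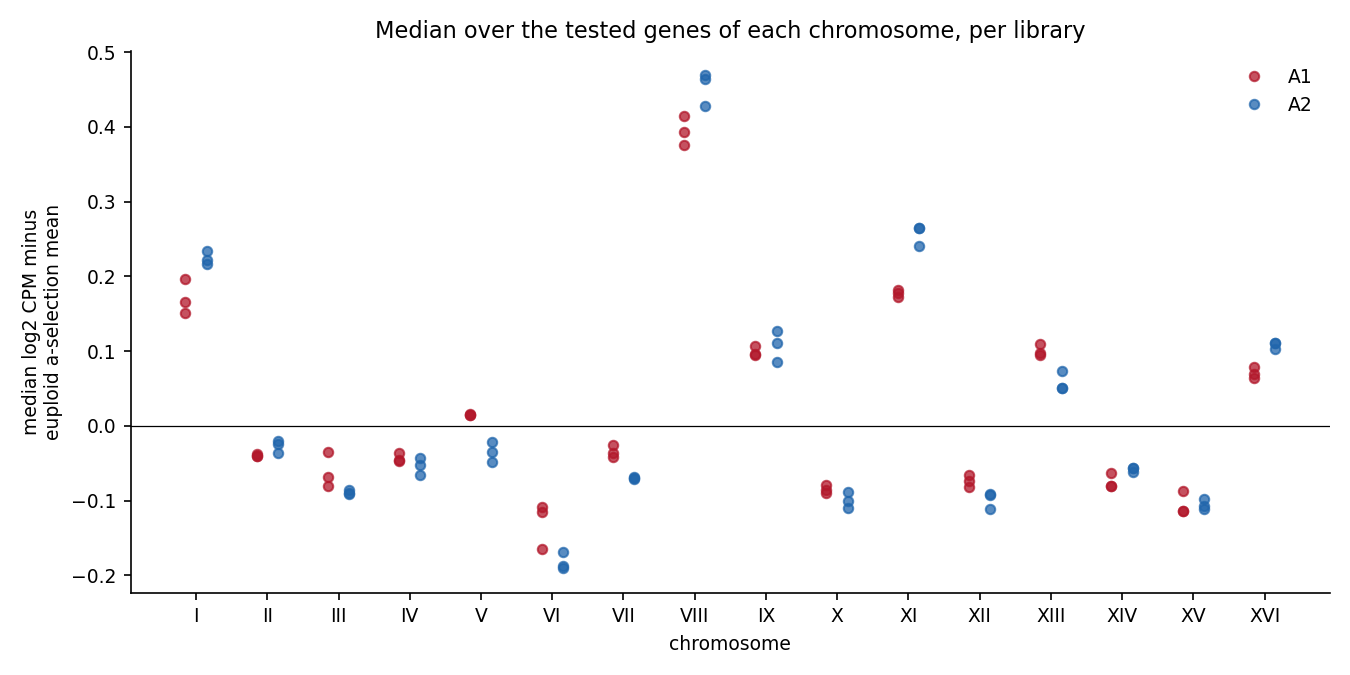
Median over the tested genes of each chromosome of log2 CPM minus the mean of the euploid a-selection libraries, for each library of A1 (red) and A2 (blue). Both populations are highest on chromosome VIII, where A1 lies at 0.38 to 0.42 and A2 at 0.43 to 0.47. All A1 libraries also lie below those of A2 on chromosomes I, II, XI, XIV and XVI.

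Some large fold changes rested on single libraries. TPO2, a polyamine exporter gene, was at 16.5, 3.99 and 31.6 CPM in A1 and 4.40 to 4.87 CPM in A2 (1.95 ± 0.49), and lost the call without A1 replicate 3 (adjusted p = 0.0615). CUP1-2, a copper metallothionein gene in a tandem array of copies, was at 0.0537, 9.21 and 4.48 CPM against 0.0718 to 0.117 CPM in A2 (5.37 ± 1.97, adjusted p = 0.0383). HXT15 and the subtelomeric gene YIL177C, both from near-identical families, were high in A2 replicate 2 alone (14.3 and 69.7 CPM, against at most 1.93 and 1.45 CPM in the other 5 libraries). These 4 genes have groups that overlap, or a call that 1 library decides. None of the 10 genes per direction taken as the largest by the naming rule lost its call when any single library was left out. That rule takes only called genes whose groups do not overlap, so this outcome was favoured by the choice.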

How the data were processed

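RNA was sequenced in 23 yeast libraries of 8 groups, of which the 3 libraries of A1 and the 3 of A2 are compared here. The deposited values are raw read counts, 1 number per gene and library. The submitters' processing notes name HISAT2 2.0.5 and build R64, HTSeq 0.6.1p1 and DESeq2 1.14.1, and also bcl2fastq 2.17.1.14. Strand use and the handling of reads shared by near-identical genes are not given in the sources used here, so overlapping and duplicated genes are uncertain. The authors' deposited table of their own comparison was not used.

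Of 6596 genes 6111 passed edgeR's filterByExpr over the 8 groups. After TMM scaling, edgeR 4.0.16 in R 4.3.3 (with limma 3.58.1) was run on all 23 libraries with 1 coefficient per group, which left 15 residual degrees of freedom, and the contrast A1 minus A2 was tested by the quasi-likelihood F test with Benjamini-Hochberg adjustment over the 6111 genes. The common biological coefficient of variation was 5.05%. On simulated counts for this comparison with 200 changed genes, 67.5%, 87.5% and 95.0% were recovered at folds of 1.2, 1.5 and 2. Of the unchanged genes 6, 5 and 11 were called. In the data 2087 genes were called, far more than were changed there, so these rates need not hold for them. Within A1, A2, A3 and the euploid a-selection group, every pair of replicate libraries differed by more than sampling noise (chi-square test). Each library was counted once, although this spread may be technical only. Intervals cover counting error only.

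The groups, 46 gene lists and the rule for named genes were chosen with earlier results of these data known. Named genes were the 10 largest called changes per direction (mean log2 CPM of 3 or more, groups not overlapping), up to 4 called members per list, every member of the marker, HO, mating-type, pyrimidine and arginine lists, 2 neighbours on each side of URA3, HO and the top gene per direction, and the 3 largest called genes of any chromosome whose median differed from that of all genes by 0.1 or more, which gave 219 genes. Single values of some list members are not reported here. Other genes named with values (other than the cell type markers) were chosen after their values were seen. Coordinates and sequences come from RefSeq's R64 genome. In 500 bases upstream of 5749 genes, 8 motifs were searched on both strands: TGACTC for Gcn4, CACGTG for Cbf1 and Pho4, GATAAG for GATA factors, CACGAAA for Swi4 and Swi6, AAGGGG for Msn2 and Msn4, TGCACCC for Aft1, the Hsf1 motif of TTC and GAA with 2 bases between them, and the Ppr1 motif of CGG and CCG with 6 between them. The search for TGCACCC was added after the data were seen. Alternatives were other scalings, DESeq2 1.42.0, other filters, only the A1 and A2 libraries, a replicate block, a stricter threshold, a test against a fold of 1.2, subtraction of the chromosome median, and leaving out each library.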

Additional observations from a re-analysis of the deposited data

Results flagged for a closer look

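In 4 of the genes with the largest differences, A1 was called above and A2 called below the euploid a-selection population, and the test of the difference itself (edgeR, A1 minus A2) was passed. Both populations share these euploid libraries. IZH4, a zinc-linked membrane protein gene, stood at 0.71 in A1 and -0.78 in A2 on the log2 scale, a difference of 1.48 (adjusted p = 4.60e-12). ADH2, the ethanol-using alcohol dehydrogenase gene, stood at 0.73 and -0.11, a difference of 0.84 (adjusted p = 7.99e-16). AGP1, the amino acid permease gene, stood at 0.35 and -0.48, a difference of 0.83 (adjusted p = 1.09e-14). ADY2, the acetate permease gene, stood at 0.31 and -0.50, a difference of 0.81 (adjusted p = 1.67e-17). In each gene all 3 A1 libraries lay above all 3 A2 libraries, as the rule for the largest named changes requires.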

How the results depend on the processing

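The 2087 called genes ranged from 1764 to 1874 when 1 library was left out, and were 2094 with RLE factors, 2083 with upper-quartile factors and 1849 with DESeq2. A test against a fold of 1.2 gave 162 (85 higher and 77 lower). With library totals as the scaling 564 genes were higher and 1842 lower, and no scaling moved the median of all genes by more than about 0.05. Genes of 2-fold or more numbered 12 with DESeq2, 12 at an adjusted p under 0.01, 10 in the test against a fold of 1.2 and 31 with the replicate block. With library totals the medians were -0.21 for pyrimidine genes, 0.052 for ribosomal protein genes, -0.36 for ribosome biogenesis genes, 0.19 for glyoxylate and gluconeogenesis genes, -0.13 for chromosomes VIII and XI, and -0.00173, -0.018, -0.036 and -0.018, all changed in sign, for the median of TCA cycle and respiratory chain genes and chromosomes VII, XII and XIII. Chromosomes III, IV, VI and X also changed in sign, to -0.042, -0.049, -0.018 and -0.042. Without 1 library the pyrimidine median ranged from -0.15 to -0.11, the median of haploid-specific signalling genes from -0.024 to 0.010, positive only without A1 replicate 3, and HXT15 from -2.19 to 0.43, positive only without A2 replicate 2 (adjusted p = 0.395, edgeR). The cause of these changes was not tested. Of 176 called named genes 18 lost the call or changed sign without 1 library. Correlations between the deviations of A1 and A2 libraries from their group means were weak and did not settle whether replicate numbers pair the samples. Same-numbered libraries correlated at 0.0150, 0.0818 and 0.0588. A1 replicates 2 and 3 correlated best with the same number in A2, and A1 replicate 1 with A2 replicate 3. With the replicate number as a block 1803 genes were called (899 higher and 904 lower), beside 2091 in the same libraries without it. Genes under about 3 counts per library, such as URA3 in A2, are limited by depth.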

Other observations

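More storage sugar genes were higher in A1 than lower. Of 20 trehalose and glycogen genes 11 were called higher (55%, beside 15.4% of all tested genes) and 1 lower, with a median log2 fold change of 0.08. PIG2, a targeting subunit of the phosphatase acting on glycogen synthase, was at 403 ± 11.5 CPM in A1 and 289 ± 3.21 in A2 (SD, n = 3; log2 fold change 0.48 ± 0.02). PGM2, phosphoglucomutase, and GSY1, glycogen synthase, were higher by 0.29 ± 0.02 and 0.29 ± 0.02, and the branching enzyme gene GLC3 by 0.25 ± 0.02. In these 4 genes the groups did not overlap, as was so in 46.5% of all tested genes. Of 26 ergosterol genes 10 were higher (38.5%, beside 15.4%) and 3 lower, with ERG3 at 0.30 ± 0.05, the regulator gene ECM22 at 0.29 ± 0.04 and MVD1 of the mevalonate route at -0.26 ± 0.05. Of 19 DNA damage genes 8 were higher (42.1%, beside 15.4%) and 2 lower, with the ribonucleotide reductase subunit gene RNR4 at 0.29 ± 0.02. HUG1, another damage-induced gene, was called at 0.37 ± 0.14 but lost the call without 1 library (highest adjusted p = 0.189 in edgeR).

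Other lists are to be read beside the 15.4% of all tested genes called higher and the 18.8% called lower. Of 20 endoplasmic reticulum folding genes 7 were lower (35.0%) and 2 higher (10%), with the chaperone gene KAR2 at -0.24 ± 0.02 and the oxidase gene ERO1 at -0.31 ± 0.04. Of 34 cell wall genes 11 were lower (32.4%) and 7 higher (20.6%), with the glucanosyltransferase family gene UTR2 at -0.45 ± 0.06. Of 27 thiamine and vitamin genes 3 were lower (11.1%) and 1 higher (3.70%). The vitamin B6 genes SNZ1 and SNO1 were at -0.60 ± 0.03 and -0.70 ± 0.15, and the biotin synthase gene BIO2 at 0.33 ± 0.05. Of 26 phosphate genes 5 were higher (19.2%) and 4 lower (15.4%), near those shares, with the high-affinity transporter gene PHO84 at -0.28 ± 0.03 and the sodium-linked transporter gene PHO89 at 0.18 ± 0.03. Of 25 drug efflux genes 6 were higher (24.0%) and 3 lower (12%), with PDR15 at 0.31 ± 0.02. Of 16 haploid-specific signalling genes 4 were higher (25%) and 5 lower (31.2%), with the G protein subunit gene STE4 at 0.17 ± 0.03 and the transcription factor gene STE12 at -0.31 ± 0.04. Of 12 glycerol genes 3 were higher (25%) and 4 lower (33.3%), with GPD1 at 0.22 ± 0.03 and GUT2 at -0.18 ± 0.03.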
